A study of Homo sapiens with 16 samples.

Results

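The genes followed here sit around the cAMP-responsive transcription factor CREB and were measured in differentiated HepaRG cells: the nuclear receptors NR4A1, NR4A2 and NR4A3, the CREB-related factor CREM, the salt-inducible kinase SIK1, the coactivators CRTC1, CRTC2 and CRTC3, the CBP/p300 partner CITED2, and CREB3L3. They were chosen by name from the gene count table, where each name stood on 1 gene ID, so they make 10 of the 58735 genes in it. All 10 passed the filter on low counts and are among the 18121 genes tested. HepaRG is a human liver line whose differentiated cultures mix hepatocyte-like and cholangiocyte-like cells. Bulk poly-A RNA was sequenced after 3 days in 4 groups of 4 libraries. The control group received vehicle (1% BSA). The formoterol group received 30 nM formoterol, a long-acting agonist of the beta-2 adrenoceptor. The fatty acid group was given palmitic acid at 0.25 mM together with oleic acid at 0.5 mM. The remaining group, called the combination, received the same fatty acids plus 30 nM formoterol. The labels give no BSA content for the treated groups, so whether their vehicle differed from that of control is not known. Every group, controls included, was kept in medium with 2% DMSO, insulin and the glucocorticoid triamcinolone acetonide, and all libraries come from 1 cell line. The labels call the libraries independent replicates without saying whether each was its own culture. The p-values therefore cover the scatter among these libraries alone, and that scatter may be technical.

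Beta-adrenoceptors raise cAMP, which frees the catalytic subunit of protein kinase A to phosphorylate CREB bound at cAMP response elements. The CRTC proteins are the second arm of the switch: salt-inducible kinases hold them phosphorylated in the cytoplasm, and when cAMP rises they enter the nucleus and join CREB. Among the fast targets are the NR4A genes, which encode receptors that work without a known hormone, SIK1, which feeds back on the CRTC proteins, and a short repressor form of CREM called ICER. In fasting liver the same route raises glucose production. CITED2 binds the coactivators CBP and p300, and CREB3L3, also known as CREBH, is a membrane-bound factor of hepatocytes and gut cells that is cut free to drive genes of lipid and acute phase metabolism.

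The promoters of NR4A3 and SIK1 and the internal promoter of CREM are printed because these 3 genes rose with formoterol and because their windows hold letters of the cAMP response element. Each window runs from 250 bases before to 50 bases after an annotated start, 5′ to 3′ on the gene's strand, as given by RefSeq on GRCh38.p14. Capitals mark the element TGACGTCA or its core TGACG, on either strand (CGTCA is the core on the other strand). The NR4A3 window is chr9:99821635-99821934 on the plus strand, the SIK1 window chr21:43427082-43427381 on the minus strand and the CREM window chr10:35195652-35195951 on the plus strand.
NR4A3: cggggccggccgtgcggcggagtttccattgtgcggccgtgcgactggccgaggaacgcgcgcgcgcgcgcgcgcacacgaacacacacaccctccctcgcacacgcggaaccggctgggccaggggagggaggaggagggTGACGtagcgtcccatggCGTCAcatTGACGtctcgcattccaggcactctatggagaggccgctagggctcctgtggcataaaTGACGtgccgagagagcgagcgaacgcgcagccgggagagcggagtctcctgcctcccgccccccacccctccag
SIK1: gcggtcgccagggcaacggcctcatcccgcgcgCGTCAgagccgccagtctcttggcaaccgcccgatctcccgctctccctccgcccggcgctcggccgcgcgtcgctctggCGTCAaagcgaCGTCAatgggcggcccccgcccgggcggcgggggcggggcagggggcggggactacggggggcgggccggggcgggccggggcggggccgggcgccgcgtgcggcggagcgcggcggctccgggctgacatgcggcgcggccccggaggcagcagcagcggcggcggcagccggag
CREM: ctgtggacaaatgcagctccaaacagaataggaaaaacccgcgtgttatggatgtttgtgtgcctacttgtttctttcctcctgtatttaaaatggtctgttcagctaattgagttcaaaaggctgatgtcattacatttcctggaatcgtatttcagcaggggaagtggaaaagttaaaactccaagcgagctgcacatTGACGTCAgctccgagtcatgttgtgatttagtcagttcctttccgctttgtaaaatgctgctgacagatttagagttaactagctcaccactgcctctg
The NR4A3 window held 4 cores, which began 109 to 25 bases before the start, and the SIK1 window held 3, which began 217 to 126 bases before it. The CREM window held the whole element, beginning 50 bases before the start; since TGACGTCA reads the same on both strands it counts as 2 overlapping cores. Of the 35116 windows of this length in the RefSeq table, 24.6% held at least 1 core, 1.40% held 3 or more and 1.85% held TGACGTCA. RefSeq windows were matched for 8 of the 10 genes, 17 windows in all. The 2 windows of NR4A1, the 3 of CITED2 and the single ones of CREB3L3 and CRTC1 held no core, and the CRTC3 window held 1. Of the 7 CREM windows 3 held a core and 2 of these TGACGTCA. Those 2 windows overlap and hold the same single element. GENCODE lists 19 transcript starts for NR4A1, and bases outside its 2 windows were not searched. The monomer site of the NR4A receptors, AAAGGTCA, was searched on both strands too and was in none of the 17 windows, against 1.22% of all windows. These matches describe letters only; a count per gene does not show which promoter was used.

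Depth was 32471299 to 65673126 counts per library, the highest in formoterol replicate 4, and levels are given as CPM, counts scaled to the library total with TMM factors. Combination replicate 2 stood apart: its 12 hepatocyte markers summed to 27650 CPM, against 59780 to 66440 CPM in the other 3 combination libraries. All 12 hepatocyte markers were measured; their sum lay between 29340 and 43080 CPM in control, 67020 and 71960 CPM with formoterol, and 56260 and 63800 CPM with fatty acids. Of 10 cholangiocyte markers 7 were measured and EPCAM had no count in any library. The 10 summed to 167 to 171 CPM in control and 191 to 202 CPM with formoterol. With fatty acids their sum was 320.0 to 373 CPM and in the combination 259 to 335 CPM. The macrophage markers PTPRC, CD68, MARCO and C1QA were below 0.1 CPM on average, as were the fibroblast markers COL1A2 and THY1. So were the endothelial markers CDH5, VWF, TEK, STAB2, CLEC4M and LYVE1. Of 10 stellate and fibroblast markers 7 were measured, and of 8 macrophage and leukocyte markers 4. The stellate and fibroblast sum was 656 to 817 CPM in control and 483 to 523 CPM with formoterol. It was 775 to 904 CPM with fatty acids and 620.5 to 780 CPM in the combination. The macrophage and leukocyte sum was 24.9 to 29.9, 27.4 to 33.9, 20.7 to 23.7 and 14.6 to 28.7 CPM in the same order. Of 8 endothelial markers 2 were measured. The 8 summed to 117 to 133 CPM in control and 38.9 to 50.6 CPM with formoterol. With fatty acids their sum was 158 to 171 CPM and in the combination 52.6 to 107 CPM. The sum of 10 proliferation genes lay between 215 and 253 CPM in control, 280 and 304 CPM with formoterol, 348 and 463 CPM with fatty acids and 535 and 841 CPM in the combination. Scaling by total counts instead of TMM moved the median of all genes by more than 0.1 in comparisons that contain the formoterol group: formoterol minus control had 1043 higher and 829 lower genes with TMM (median 0.00) but 485 and 1918 with total counts (median −0.14), combination minus formoterol 1717 and 1625 (0.01) but 2965 and 696 (0.14), and the interaction 384 and 613 (0.01) but 1030 and 351 (0.17). In bulk RNA, fewer cells of a type and less RNA per cell cannot be told apart.

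With fatty acids alone, NR4A3, NR4A2, SIK1 and CRTC3 fell and CITED2 and CREB3L3 rose. Formoterol alone raised NR4A3, SIK1, CREM and CREB3L3 and lowered CRTC3. Added to fatty acids, formoterol raised NR4A3, SIK1 and NR4A1 and lowered CITED2. Calls were made by edgeR's quasi-likelihood test at a Benjamini-Hochberg adjusted p under 0.05 over all genes tested. For fatty acids against control 6 of the 10 genes passed, where 16.5% of all genes did; 2 were higher (8.93% of all genes) and 4 lower (7.62%). For formoterol against control 5 passed (10.3%), 4 higher (5.76%) and 1 lower (4.57%). For the combination against fatty acids 4 passed (2.8%), 3 higher (1.68%) and 1 lower (1.12%). For the combination against formoterol 3 passed (18.4%), 2 higher (9.48%) and 1 lower (8.97%), and against control 4 passed (14.3%), 3 higher (7.58%) and 1 lower (6.68%). The interaction asks whether the formoterol effect differs with and without fatty acids; it passed for 2 genes (5.5%), 1 higher (2.12%) and 1 lower (3.38%). Libraries of the 2 groups did not overlap for 6 genes in fatty acids against control (21% of all genes), 5 in formoterol against control (16.7%) and 5 in the combination against fatty acids (9.34%), against formoterol (21.1%) and against control (16.3%). The list was drawn up with results of these libraries in view, so these counts are a description and no evidence about the group. Without combination replicate 2 the combination against formoterol gave 5.

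**Figure D1:**
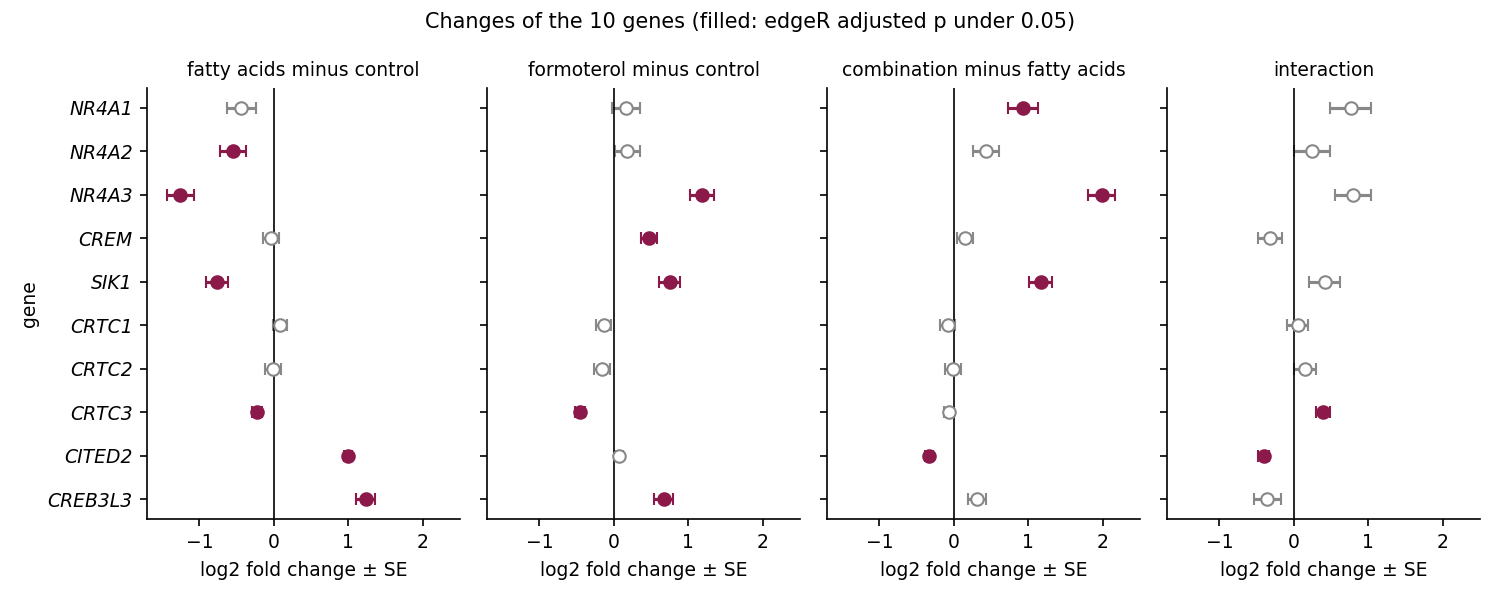
Log2 fold changes of the 10 genes (x axis) with their standard errors, 1 gene per row, in 4 comparisons; filled points passed the adjusted p of 0.05. NR4A3 and SIK1 lie left of 0 with fatty acids and right of 0 with formoterol, with and without fatty acids, while CITED2 and CREB3L3 lie furthest right with fatty acids.

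NR4A3 (ENSG00000119508, chromosome 9, 99821855 to 99866891, plus strand, on GRCh38) is a nuclear receptor that also acts as an early cAMP target. In control replicates 1 to 4 its level was 6.59, 6.99, 5.35 and 5.81 CPM, with formoterol 13.4, 15.4, 10.2 and 17.1 CPM. With fatty acids it was 3.08, 2.56, 1.83 and 2.88 CPM, and in the combination 8.73, 11.8, 9.76 and 10.9 CPM. The formoterol and combination libraries were the highest and overlapped each other, all fatty acid libraries lay below all controls, and neither neighbouring pair below the top overlapped. Group means were 6.19 ± 0.741 CPM in control, 14.0 ± 2.97 with formoterol, 2.59 ± 0.545 with fatty acids and 10.3 ± 1.33 in the combination (SD, n = 4). Fatty acids alone lowered it by −1.25 ± 0.18 on the log2 scale (± SE; edgeR adjusted p = 3.6e-05), to 0.419 times the control level. Formoterol alone raised it 2.27-fold (1.19 ± 0.17, edgeR adjusted p = 0.000128), and added to fatty acids it raised it 3.96-fold (1.99 ± 0.18, edgeR adjusted p = 3.85e-07). The combination stood above control (0.73 ± 0.17, edgeR adjusted p = 0.00421). Against formoterol alone it was at −0.45 ± 0.16, which did not pass (edgeR adjusted p = 0.0574). The formoterol effect was larger with fatty acids by 0.80 ± 0.24, which did not pass either (edgeR interaction adjusted p = 0.0538). Both of these values lie close to the threshold: each passed in 6 alternatives, of 23 and of 22, with adjusted p from 0.0187 to 0.212 and from 0.0161 to 0.112. Without combination replicate 2 they were −0.52 (adjusted p = 0.0399) and 0.73 (adjusted p = 0.0838).

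NR4A1 (ENSG00000123358, chromosome 12, 52022832 to 52059507), the best known member of the family and an immediate early gene, had 79 to 229 counts per library. Its control libraries held 2.94, 4.03, 3.98 and 3.94 CPM and its formoterol libraries 4.80, 4.20, 4.25 and 3.49 CPM. With fatty acids it stood at 2.402, 2.38, 2.75 and 3.46 CPM and in the combination at 5.95, 6.11, 5.42 and 3.51 CPM. Replicate 4 of the combination was far below the other 3 and just above the highest fatty acid library, so these 2 groups did not overlap. In the order combination, formoterol, control, fatty acids all neighbours overlapped. Formoterol added to fatty acids raised NR4A1 1.91-fold, from 2.75 ± 0.506 to 5.25 ± 1.20 CPM (SD, n = 4; 0.93 ± 0.20, edgeR adjusted p = 0.00943). In a fit of only these 2 groups the change was 0.94 and no longer passed (edgeR adjusted p = 0.0531). Formoterol alone left it at 0.16 ± 0.19 (95% interval −0.22 to 0.55, edgeR adjusted p = 0.666) and fatty acids alone at −0.43 ± 0.20 (edgeR adjusted p = 0.149). The interaction of 0.77 ± 0.28 did not pass (edgeR adjusted p = 0.11), and without combination replicate 4 it was 0.92 and passed (edgeR adjusted p = 0.0389).

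NR4A2 (ENSG00000153234, chromosome 2, 156324432 to 156342348), the receptor best known from dopamine neurons and also a CREB target in liver, did not pass in either comparison that adds formoterol. Its levels were 6.53, 6.24, 7.43 and 5.81 CPM in control and 6.77, 8.41, 6.83 and 7.51 CPM with formoterol. Fatty acid libraries had 5.57, 5.36, 2.84 and 4.04 CPM and combination libraries 5.60, 6.51, 6.03 and 5.82 CPM. All fatty acid libraries lay below the lowest control and below the lowest combination library, narrowly in the last case, while control overlapped both formoterol and the combination. Fatty acids alone lowered it by −0.55 ± 0.17 (edgeR adjusted p = 0.0326), a call that was lost without control replicate 1 (adjusted p = 0.0641), control replicate 3 (0.0996), fatty acid replicate 3 (0.113) or fatty acid replicate 4 (0.0857). Formoterol alone gave 0.18 ± 0.17 (95% interval −0.15 to 0.51, edgeR adjusted p = 0.562), and added to fatty acids 0.43 ± 0.17 (edgeR adjusted p = 0.233).

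Per kilobase of the deposited gene length, NR4A2 was the highest of the 3 receptors in control, at 1.64 ± 0.172 CPM per kb. NR4A3 stood at 0.980 ± 0.117 and NR4A1 at 0.510 ± 0.0717 (SD, n = 4). For NR4A1 that length, 7295 bases, pools all annotated exons of a gene with 19 transcript starts. It is not the length of 1 transcript, so ranks, shares and sums within the family depend on the annotation as well. NR4A3 made up 31.4 ± 3.796% of the length-scaled sum of the 3 in control, 47.4 ± 4.92% with formoterol, 21.5 ± 1.65% with fatty acids and 42.2 ± 3.7% in the combination. Its share in every library with formoterol was at least 38.3%, above the highest share without it, 34.3%. The sum of the 3 receptors was 3.13 ± 0.154 CPM per kb in control, 4.66 ± 0.573 with formoterol, 1.91 ± 0.367 with fatty acids and 3.86 ± 0.334 in the combination. So the order of the groups for the whole family was that of NR4A3.

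**Figure D2:**
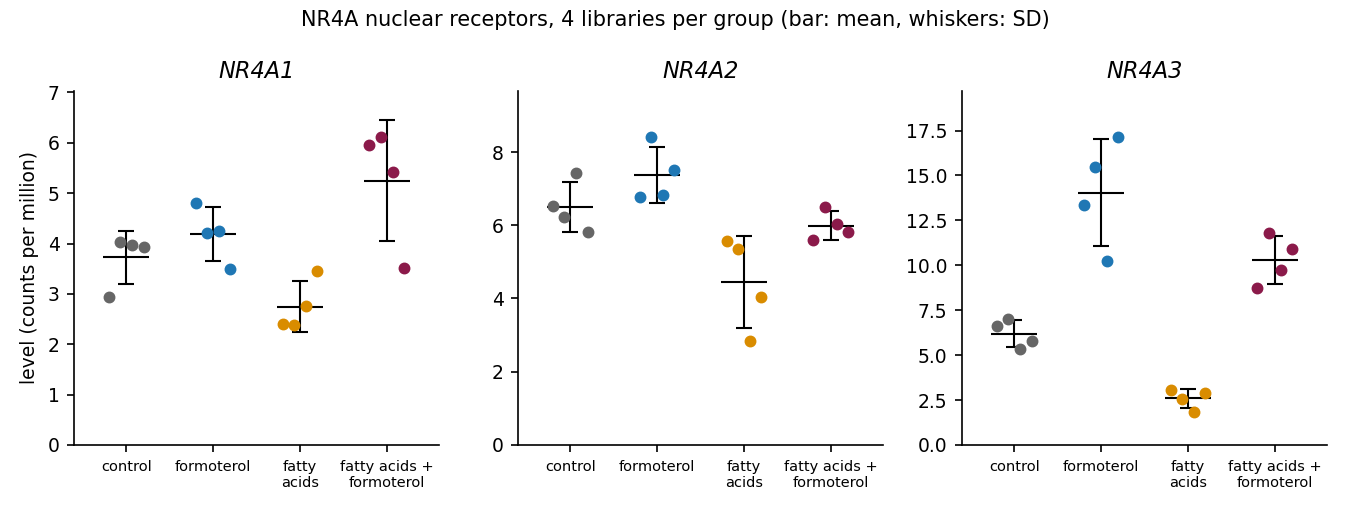
Levels of the 3 NR4A receptors in CPM (y axis, from 0, with its own scale in each panel) in the 4 groups, with 1 point per library, the mean as a bar and the SD as whiskers. NR4A3 separates the fatty acid libraries (1.83 to 3.08 CPM) from control and control from both groups with formoterol, while 1 combination library of NR4A1, at 3.51 CPM, sits far below the other 3.

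SIK1 (ENSG00000142178, chromosome 21, 43414483 to 43427189), the cAMP-induced kinase that phosphorylates the CRTC proteins, had the same order of groups as NR4A3. Control libraries held 11.4, 8.50, 10.1 and 12.4 CPM and formoterol libraries 18.8, 16.7, 19.8 and 16.0 CPM. Fatty acid libraries held 5.13, 8.45, 5.56 and 5.84 CPM and combination libraries 12.6, 16.6, 12.9 and 13.9 CPM. Control and fatty acids were narrowly apart, and the combination lay above control and overlapped formoterol. Fatty acids alone lowered SIK1 by −0.76 ± 0.15 (edgeR adjusted p = 0.00124), formoterol alone raised it 1.68-fold (0.75 ± 0.15, edgeR adjusted p = 0.00252) and formoterol added to fatty acids 2.25-fold (1.17 ± 0.15, edgeR adjusted p = 5.84e-05). These 3 calls held in all 24 alternatives each. Combination against control (0.40 ± 0.15, edgeR adjusted p = 0.0747), combination against formoterol (−0.35 ± 0.15, edgeR adjusted p = 0.106) and the interaction (0.42 ± 0.21, edgeR adjusted p = 0.279) did not pass.

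The SIK1 level is uncertain because the annotation holds a near-identical copy, SIK1B (ENSG00000275993, chromosome 21, 6111134 to 6123739): 80.5% of all 100-base windows of the SIK1 transcripts occur unchanged in SIK1B. SIK1B had more counts than SIK1, with 16.0 ± 2.41 CPM in control, 26.2 ± 2.70 with formoterol, 8.87 ± 0.754 with fatty acids and 20.7 ± 3.55 in the combination (SD, n = 4). It fell with fatty acids (−0.85 ± 0.13, edgeR adjusted p = 6.96e-05) and rose with formoterol alone (0.71 ± 0.12, edgeR adjusted p = 0.000954) and on top of fatty acids (1.22 ± 0.13, edgeR adjusted p = 3.81e-06). The part of the joint count that was assigned to SIK1 averaged 40.0% in control, 40.5% with formoterol, 41.0% with fatty acids and 40.6% in the combination, but ran from 31.0% to 49.2% over single libraries. Summing both rows gave 26.6 ± 1.93, 44.1 ± 2.03, 15.1 ± 2.19 and 34.7 ± 2.70 CPM in the same order of groups. With the rows summed, all 6 comparisons passed edgeR's test: the changes were −0.82 (adjusted p = 2.13e-06) for fatty acids, 0.73 (3.11e-05) for formoterol and 1.20 (4.09e-08) for formoterol on fatty acids. The combination stood at 0.38 from control (adjusted p = 0.00546) and at −0.35 from formoterol (0.00908), and the interaction was 0.47 (0.0347).

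CREM (ENSG00000095794, chromosome 10, 35126791 to 35212958) encodes activators and repressors of cAMP-responsive genes from several promoters; GENCODE lists 41 transcript starts, and the gene count adds them all. It stood at 15.5, 16.0, 20.7 and 19.2 CPM in control and at 24.6, 24.3, 24.0 and 26.1 CPM with formoterol. Fatty acid libraries held 14.2, 15.9, 18.9 and 20.5 CPM and combination libraries 20.8, 19.3, 19.1 and 17.95 CPM. The formoterol libraries were above all others, and the other 3 groups overlapped one another. Formoterol alone raised CREM 1.39-fold, from 17.9 ± 2.51 to 24.7 ± 0.915 CPM (SD, n = 4; 0.47 ± 0.11, edgeR adjusted p = 0.0088), a call lost with scaling by total counts (0.34, adjusted p = 0.0645). The combination was lower than formoterol (−0.36 ± 0.11, edgeR adjusted p = 0.0257). That call was lost with total counts (−0.22, adjusted p = 0.194) and without formoterol replicate 4 (adjusted p = 0.0742) or combination replicate 4 (adjusted p = 0.0698). Formoterol added to fatty acids gave 0.15 ± 0.11 (95% interval −0.07 to 0.37, edgeR adjusted p = 0.603), fatty acids alone −0.04 ± 0.11 (edgeR adjusted p = 0.862) and the interaction −0.32 ± 0.16 (edgeR adjusted p = 0.262).

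**Figure D3:**
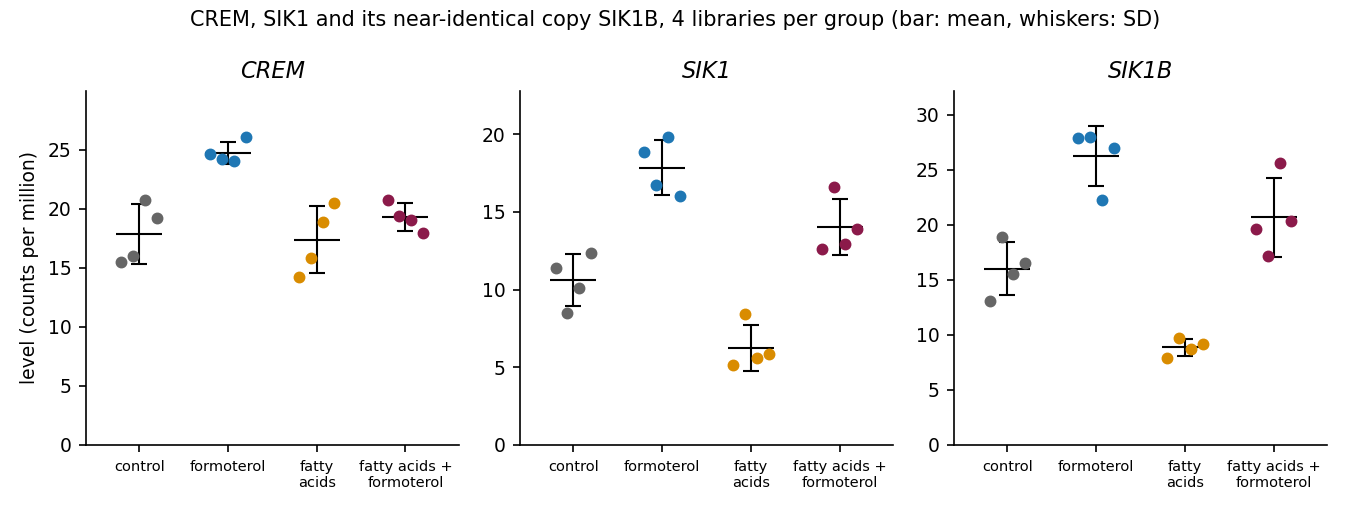
Levels of CREM, SIK1 and SIK1B in CPM (y axis, from 0, with its own scale in each panel) in the 4 groups, with 1 point per library, the mean as a bar and the SD as whiskers. SIK1 and SIK1B take the same order, lowest with fatty acids and highest with formoterol, while CREM is raised in the formoterol group (24.0 to 26.1 CPM) and the other groups overlap.

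The CRTC coactivators carry the cAMP signal to CREB, and they are controlled mainly through phosphorylation and location, which RNA counts do not show. CRTC3 (ENSG00000140577, chromosome 15, 90529925 to 90645345) was the member of the family that passed tests. It stood at 53.5, 51.4, 55.4 and 52.8 CPM in control and at 37.2, 42.3, 40.4 and 36.1 CPM with formoterol. Fatty acid libraries held 43.3, 45.1, 50.4 and 43.9 CPM and combination libraries 45.0, 42.4, 44.2 and 43.2 CPM. All treated libraries lay below all controls; fatty acids and the combination overlapped, and the combination and formoterol were narrowly apart. Formoterol alone lowered CRTC3 to 0.732 times the control level (−0.45 ± 0.07, edgeR adjusted p = 0.000224) and the combination to 0.820 times (−0.29 ± 0.07, edgeR adjusted p = 0.00511). Fatty acids alone gave −0.22 ± 0.07 (edgeR adjusted p = 0.0249), a call lost with no filter (adjusted p = 0.0837) and without control replicate 1 or 3 or fatty acid replicate 1, 2 or 4 (adjusted p from 0.0555 to 0.0743). On top of fatty acids formoterol gave −0.06 ± 0.07 (95% interval −0.19 to 0.07, edgeR adjusted p = 0.75). The interaction passed, at 0.39 ± 0.09 (edgeR adjusted p = 0.0208), so the formoterol effect differed with and without fatty acids. That call was lost without control replicate 3 (0.37, adjusted p = 0.0536) or formoterol replicate 4 (0.35, adjusted p = 0.0504).

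CRTC2 (ENSG00000160741, chromosome 1, 153947669 to 153958625), the main CRTC of liver in fasting, ranged from 15.2 to 23.4 CPM in control, 16.3 to 19.1 with formoterol, 18.4 to 21.0 with fatty acids and 18.3 to 21.3 in the combination. CRTC1 (ENSG00000105662, chromosome 19, 18683677 to 18782333), best known in neurons, ranged from 15.3 to 18.2, 14.5 to 16.2, 16.4 to 19.7 and 14.1 to 19.2 CPM in the same order. All 4 groups overlapped their neighbours for both genes, and neither gene passed in any of the 6 comparisons. Formoterol alone gave −0.16 ± 0.11 for CRTC2 (95% interval −0.37 to 0.06) and −0.14 ± 0.10 for CRTC1 (95% interval −0.33 to 0.06), with edgeR adjusted p of 0.417 and 0.451. Fatty acids alone gave −0.02 ± 0.11 (95% interval −0.23 to 0.20) and 0.08 ± 0.10 (95% interval −0.11 to 0.28), with edgeR adjusted p of 0.95 and 0.647. Per kilobase of the deposited gene length, CRTC2 at 5.45 ± 0.952 and CRTC3 at 4.92 ± 0.154 CPM per kb were about level in control. CRTC1 stood at 2.42 ± 0.177 (SD, n = 4). The CRTC3 length, 10814 bases, pools all its annotated exons, so this comparison depends on the annotation as well. CRTC3 made up 38.7 ± 3.13% of the length-scaled sum of the 3 in control, 33.7 ± 1.61% with formoterol, 34.7 ± 2.11% with fatty acids and 34.2 ± 1.48% in the combination. The control shares, from 34.9% to 42.6%, overlapped those of each treated group.

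**Figure D4:**
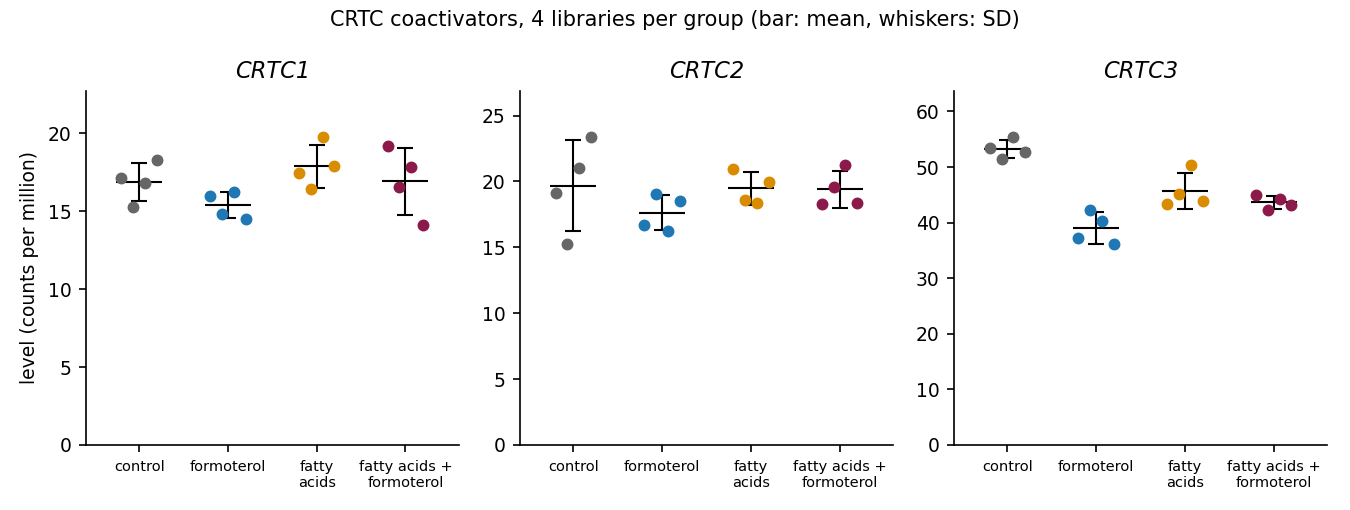
Levels of the CRTC coactivators in CPM (y axis, from 0, with its own scale in each panel) in the 4 groups, with 1 point per library, the mean as a bar and the SD as whiskers. For CRTC3 the 4 controls (51.4 to 55.4 CPM) lie above all 12 treated libraries; for CRTC1 and CRTC2 the groups overlap.

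CITED2 (ENSG00000164442, chromosome 6, 139371807 to 139374620), which binds CBP and p300 and competes there with factors such as HIF-1 alpha, was the most abundant of the 10 genes per length, at 60.8 ± 3.01 CPM per kb in control (SD, n = 4). Control libraries held 151, 146, 164 and 155 CPM and formoterol libraries 157, 162, 158 and 168 CPM. With fatty acids the level was 311, 308, 299 and 315 CPM and in the combination 257, 250, 239 and 229 CPM. The fatty acid libraries were above the combination libraries and these above all others, while formoterol and control overlapped. Fatty acids raised CITED2 2.00-fold (1.00 ± 0.05, edgeR adjusted p = 3.11e-11), and on top of fatty acids formoterol lowered it to 0.791 times (−0.34 ± 0.05, edgeR adjusted p = 0.000697). Formoterol alone gave 0.07 ± 0.05 (95% interval −0.04 to 0.17, edgeR adjusted p = 0.506). The interaction passed at −0.41 ± 0.08 (edgeR adjusted p = 0.00478); with total counts as scaling it was −0.25 and did not (adjusted p = 0.116). The combination remained 1.58-fold above control (0.66 ± 0.05, edgeR adjusted p = 2.34e-08) and 1.51-fold above formoterol (0.60 ± 0.05, edgeR adjusted p = 1.92e-07). CITED2 in combination replicate 2 was within the range of the other 3, and without that library the change on top of fatty acids was −0.35 (adjusted p = 0.000284). The cholangiocyte markers followed it only in part: 3 of 7 rose and 1 fell with fatty acids, 1 rose with formoterol alone, and 2 fell when formoterol was added to fatty acids. The 2 were KRT19 (−0.42), which had risen with fatty acids (1.52), and SOX9 (−0.40), which had fallen with them (−0.72). CD24 was the marker that rose with formoterol alone (0.68). The part of these markers in the CITED2 values was not tested.

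CREB3L3 (ENSG00000060566, chromosome 19, 4153601 to 4173054), made by hepatocytes and known for raising FGF21 and apolipoprotein genes in fasting, rose with each treatment. Control libraries held 72.1, 73.3, 70.4 and 77.8 CPM and formoterol libraries 115, 110.0, 117 and 126 CPM. Fatty acid libraries held 186, 175, 161 and 169 CPM and combination libraries 228, 134, 247 and 251 CPM. Combination replicate 2, at 134 CPM, lay below all fatty acid libraries while the other 3 lay above them, and control, formoterol and fatty acids did not overlap one another. Fatty acids raised it 2.35-fold (1.23 ± 0.13, edgeR adjusted p = 4.94e-07), formoterol 1.59-fold (0.67 ± 0.13, edgeR adjusted p = 0.00174) and both together 2.93-fold (1.55 ± 0.13, edgeR adjusted p = 2.15e-08). Against formoterol alone the combination was 1.84-fold higher (0.88 ± 0.12, edgeR adjusted p = 4.69e-05). On top of fatty acids formoterol gave 0.32 ± 0.12, which did not pass (edgeR adjusted p = 0.212), but without combination replicate 2 it gave 0.49 ± 0.06 and passed (edgeR adjusted p = 1.17e-05). Without that library the combination mean was 242 ± 11.9 CPM (SD, n = 3), against 215 ± 54.7 with it, and the combination stood 3.30-fold above control (edgeR adjusted p = 2.22e-16). The interaction was −0.35 ± 0.18 with all libraries (edgeR adjusted p = 0.27) and −0.18 ± 0.09 without combination replicate 2 (edgeR adjusted p = 0.262).

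Several marker lists changed as well, each following CREB3L3 only in part. Of the hepatocyte markers 7 of 12 rose with fatty acids and 9 of 12 with formoterol, and combination replicate 2 had 0.435 times the marker sum of the other 3 combination libraries. Their sum was higher with formoterol (67020 to 71960 CPM) than with fatty acids (56260 to 63800 CPM), the reverse of CREB3L3. On top of fatty acids 1 rose and 1 fell. Of the 7 cholangiocyte markers measured 3 rose and 1 fell with fatty acids and 1 rose with formoterol. The sum of all 10 cholangiocyte markers listed, like CREB3L3, was lowest in control, higher with formoterol and higher still with fatty acids. In the combination the likeness of group order ended. The sum there was 308, 259, 335 and 317 CPM in replicates 1 to 4, against 320 to 373 CPM with fatty acids. Replicate 2 was the lowest combination library for this sum, as it was for CREB3L3 (134 CPM). When formoterol was added to fatty acids 2 of these markers fell, KRT19 and SOX9, while the CREB3L3 mean was the highest of the 4 groups. CD24, another cholangiocyte marker, did not pass there (0.09 ± 0.13, edgeR adjusted p = 0.837). CD24 rose with fatty acids alone (1.40 ± 0.13, edgeR adjusted p = 1.93e-07) and with formoterol alone (0.68 ± 0.13, edgeR adjusted p = 0.00256). Of 10 proliferation genes 9 rose with fatty acids and 4 with formoterol, and the group ranges of their sum took the order of the CREB3L3 group means, control, formoterol, fatty acids and combination. Within the combination, replicate 2 had the highest proliferation sum (841 CPM) but the lowest CREB3L3 level (134 CPM). The part of these lists in the CREB3L3 values was not tested. Of 7 measured genes known as CREB3L3 targets, of 9 listed, 3 rose with fatty acids and none fell, with a median of 0.54 against 0.01 over all genes. APOA4, an apolipoprotein of triglyceride-rich particles, changed by 2.49 ± 0.22, APOA5 by 1.06 ± 0.21 and APOA1 by 1.18 ± 0.24 (edgeR adjusted p = 9.74e-08, 0.00137 and 0.00141). With formoterol 3 rose, among them APOA1 at 1.10 ± 0.24 and the acute phase protein gene CRP at 1.07 ± 0.24, and the lipid droplet gene CIDEC fell at −0.48 ± 0.11 (edgeR adjusted p = 0.00495, 0.00578 and 0.00656). On top of fatty acids 1 passed, CRP at 1.05 ± 0.23 (edgeR adjusted p = 0.0141), and the list's median was −0.30. Without combination replicate 2, CRP gave 1.33 and APCS 0.32 in this comparison. The other targets then gave −0.03 (APOA4), −0.07 (APOA1), −0.12 (CIDEC), −0.29 (APOA5) and −0.64 (HAMP). With all libraries, the median of the 12 hepatocyte markers was 0.75 with fatty acids, 0.99 with formoterol and −0.29 on top of fatty acids. The medians of the target list were 0.54, 0.60 and −0.30 in the same order. The part of the hepatocyte markers in the target values was not tested.

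**Figure D5:**
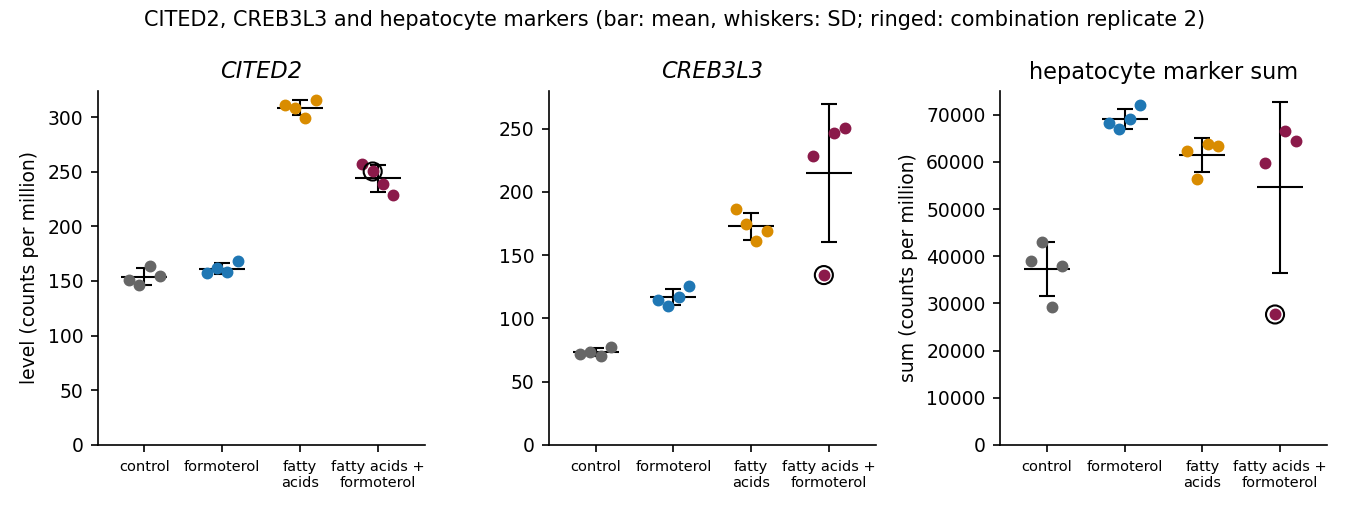
Levels of CITED2 and CREB3L3 in CPM and the sum of 12 hepatocyte markers in CPM (y axes, from 0) in the 4 groups, with 1 point per library, the mean as a bar, the SD as whiskers and combination replicate 2 ringed. The ringed library is the lowest of its group for CREB3L3 (134 CPM) and for the marker sum (27650 CPM) and lies within its group for CITED2.

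The other genes of the pathway were read from lists of CREB relatives, coactivators and regulators, and target genes. Shares of all genes that passed, given above, were 16.5% with fatty acids, 10.3% with formoterol and 2.8% for formoterol on fatty acids. Of 11 other CREB family factors 1 passed in each of these comparisons: with fatty acids CREB5 rose (0.73 ± 0.15, edgeR adjusted p = 0.00137), and CREBRF fell with formoterol alone (−0.31 ± 0.07, edgeR adjusted p = 0.00484) and on top of fatty acids (−0.42 ± 0.07, edgeR adjusted p = 0.000652). Among 11 measured coactivators and CRTC regulators, of 12 listed, 3 rose and 2 fell with fatty acids. SIK2, the salt-inducible kinase that holds CRTC2 in the cytoplasm of hepatocytes, followed SIK1 with fatty acids: it fell from 154 to 114 CPM (−0.43 ± 0.06, edgeR adjusted p = 1.72e-05). Added to fatty acids, formoterol raised it to 146 CPM (0.35 ± 0.06, edgeR adjusted p = 0.000992), and its interaction passed at 0.45 ± 0.08 (edgeR adjusted p = 0.0035). With formoterol alone the calcineurin subunit gene PPP3R1 was the member that passed (0.36 ± 0.08, edgeR adjusted p = 0.00397).

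Of 16 measured cAMP and CREB target genes, of 18 listed, 7 fell and 3 rose with fatty acids (median −0.40), 5 rose and 3 fell with formoterol (median 0.16), and 3 rose and none fell when formoterol was added to fatty acids (median 0.18), where the median of all genes tested lay within 0.01 of 0. CGA, which encodes the alpha subunit of the glycoprotein hormones and is a classic cAMP-induced gene, ranked first in both comparisons that add formoterol. It rose from 1.56 to 35.5 CPM with formoterol alone (4.50 ± 0.20, edgeR adjusted p = 9.28e-12) and from 1.12 to 28.6 CPM on top of fatty acids (4.65 ± 0.21, edgeR adjusted p = 9.69e-12). The phosphodiesterase gene PDE4D had the same order of group means as NR4A3: 16.2 CPM in control, 34.3 with formoterol, 8.14 with fatty acids and 25.3 in the combination. PPARGC1A, the coactivator that joins CREB in turning on glucose production, fell with fatty acids (−0.76 ± 0.07, edgeR adjusted p = 1.03e-07) and did not pass with formoterol alone (0.16 ± 0.07, edgeR adjusted p = 0.159). PCK1 and G6PC, which encode enzymes of glucose production, rose with fatty acids (0.86 ± 0.17 and 0.85 ± 0.25) and with formoterol (0.75 ± 0.17 and 1.24 ± 0.25). Their edgeR adjusted p was 0.00109 and 0.0219 with fatty acids and 0.00656 and 0.00294 with formoterol. Both are hepatocyte genes, and in the same comparisons 7 and 9 of the 12 hepatocyte markers rose; the part of those markers was not tested. On top of fatty acids formoterol left both short of the threshold, at 0.21 ± 0.16 for PCK1 and −0.54 ± 0.25 for G6PC (edgeR adjusted p = 0.628 and 0.31). Without combination replicate 2, the library with the low hepatocyte marker sum, these values were 0.40 ± 0.12 and −0.28 ± 0.15 (edgeR adjusted p = 0.0733 and 0.433). Of 5 measured NR4A partners and hepatic NR4A targets, of 7 listed, G6PC and FBP1 rose with fatty acids, FBP1 from 0.125 to 0.683 CPM. With formoterol G6PC rose and the partner gene RXRA fell (−0.22 ± 0.06, edgeR adjusted p = 0.0204), and none passed when formoterol was added to fatty acids.

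Across the 16 libraries, the closest pair among the 10 genes was NR4A3 with SIK1, with a Pearson r of log2 CPM of 0.904, followed by NR4A2 with NR4A3 at 0.788 and CITED2 with CREB3L3 at 0.774. These values describe points that share libraries, groups and depth. Of 13885 other protein-coding genes, those most like NR4A3 were PDE4D (r = 0.954), CHMP1B (0.951) and CANT1 (0.947), and those most like SIK1 were CSGALNACT1 (0.941), SLC26A2 (0.94) and TNFAIP1 (0.935). For CITED2 they were KRT19 (0.986), a keratin of ductal cells that went from 58.7 CPM in control to 168 with fatty acids and 126 in the combination, C1orf198 (0.973) and KRT6A (0.968). For CREB3L3 they were the cholangiocyte marker CD24 (0.985), PDIA4 (0.965), a folding enzyme of the endoplasmic reticulum, and PON2 (0.963), and for CRTC3 they were RIPOR2 (0.928), GRB10 (0.912) and ACACB (0.911). The closest genes of NR4A1 (CHFR, 0.885), NR4A2 (OSER1, 0.874), CREM (TNFRSF19, 0.863), CRTC2 (HES4, 0.811) and CRTC1 (EXTL3, 0.792) followed them less closely.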

How the data were processed

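The authors deposited 1 table of raw counts per gene for 16 libraries; no source used here gives the counting program or the strandedness. Per the submitters' processing notes the tools were HISAT2 2.0.5 and DESeq2 and the build mm39, a mouse build, but all 58735 gene IDs are human, and 58724 have the start and end of GENCODE release 29 (GRCh38), so the counts were read as human. All 10 genes and all lists were chosen with earlier results of these data known. Genes were filtered with filterByExpr, which left 18121 genes and 99.94% of counts, scaled with TMM and fitted with edgeR 4.0.16 quasi-likelihood tests on 4 group means (12 residual degrees of freedom); the SE is the log2 fold change divided by the square root of F, and a 95% interval is 1.96 SE on each side. The fit was also run on simulated data with changes set in the fatty acid group only, and its outcome is not given here. Alternatives were DESeq2 1.42.0 or its size factors, total counts, no filter, a floor of 1 CPM in 4 libraries, the replicate number as a block, only the 2 groups compared, each library left out in turn, and SIK1B added to SIK1. Per-length levels divide CPM by the deposited gene length. Named besides the 10 genes were up to 3 list members per comparison ranked first by p among those that passed, PPARGC1A, PCK1, G6PC and SIK1B, and the 3 protein-coding genes with the highest Pearson correlation of log2 CPM (prior count 2) to each. Genes that overlap one of the 10 had less than 10% of its counts. R 4.3.3, Python 3.11.15 and matplotlib 3.10.9 were used.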

Additional observations from a re-analysis of the deposited data

Results flagged for a closer look

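NR4A1 in control replicate 1, at 2.94 CPM, lay far from the other 3 control libraries (3.94 to 4.03 CPM): its gap to the nearest was 0.916 of the group's range, above Dixon's 95% critical value for 4 samples. It was the only such library among 40 groups of 4 (10 genes in 4 groups), and chance gives about 1 in 20 groups.

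The formoterol effect differed with and without fatty acids for CRTC3 and CITED2, by the interaction term of edgeR. For CRTC3 the difference was 0.39 (adjusted p = 0.0208): formoterol lowered it without fatty acids and gave −0.06 with them. For CITED2 it was −0.41 (adjusted p = 0.00478): formoterol gave 0.07 without fatty acids and lowered it with them.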

How the results depend on the processing

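Counts of genes past the threshold over all genes moved by more than 1.5 times as follows. For formoterol added to fatty acids (507) the count was 880 with no filter, 795 with DESeq2 and 275 with only the 2 groups compared, and 302 (without fatty acid replicate 3) to 590 with 1 library left out. For the interaction (997) it was 1523 with no filter and 444 (without control replicate 3) to 1325 with 1 library left out, with 585 without formoterol replicate 4, 604 and 653 without fatty acid replicates 1 and 3 and 640 without control replicate 4, and for formoterol against control (1872) it was 1002 (without control replicate 3) to 2588, with 1118 without formoterol replicate 4. Of the 10 genes, the interaction passed for 4 with no filter and for 1 to 3 with 1 library left out (1 without control replicate 3), and the combination against formoterol for 2 to 5 (5 without combination replicate 2).

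Directions turned only for changes that passed in no fit. With total counts they were −0.067 for CITED2 with formoterol alone and 0.018 for CRTC2 with formoterol on fatty acids. For CRTC1 in the combination against control they were −0.006 with at least 1 CPM in 4 libraries and −0.001 with the replicate block. With 1 library left out, CREM ran from −0.130 to 0.039 with fatty acids, and CRTC2 from −0.120 to 0.077 with fatty acids, −0.053 to 0.037 with formoterol on fatty acids and −0.125 to 0.072 for the combination against control. CRTC1 ran from −0.062 to 0.081 for the combination against control and −0.010 to 0.133 for the interaction.

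Libraries with the same replicate number correlated weakly: of 24 such pairs 0 correlated above 0.1 (−0.113 to 0.0825), and 7 of 16 libraries correlated best with their own number. The labels do not say what the numbers mark. A small effect of a shared culture or day would leave little correlation, so these values cannot decide whether the libraries were paired. With the replicate block 6, 5, 4, 4, 4 and 3 of the 10 genes passed, in the order of comparisons given at the start, and NR4A3 joined the combination against formoterol (adjusted p = 0.0363) and the interaction (0.0239). Counts for NR4A1 (79 to 229 per library) set the limit on depth: its standard errors, 0.19 to 0.28, were the largest of the 10 genes in each comparison.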
